A study of Mus musculus with 6 samples.

Results

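Neutrophil granule protein genes are 10 genes, of 23574 counted in the series, whose products fill the granules or cytosol of granulocytes: Prtn3, Mpo, Elane, Ctsg, Ms4a3, S100a8, S100a9, Ngp, Ltf and Camp. They were chosen by name, with earlier results of these data known. The series sequenced RNA of sorted blood stem cells of the C57BL/6 strain, as 3 libraries labelled HLF KO and 3 from wild-type littermates. HLF, a PAR bZIP protein, regulates transcription. Each library of both genotypes came from 3000 fresh cells sorted as negative for lineage markers, CD34 and Flt3 and positive for Sca-1 and c-Kit. The sources used here do not give the animals' age and sex or the deleted part of the gene. The labels do not say whether each library came from its own animal, and p-values measure only the spread between these libraries, part of which may be technical.

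Granulocyte precursors make their granule proteins in waves. The primary (azurophil) granules form first, at the promyelocyte stage, and hold myeloperoxidase (Mpo) and the serine proteases proteinase 3 (Prtn3), neutrophil elastase (Elane) and cathepsin G (Ctsg). Ms4a3, a membrane protein of granulocyte-monocyte progenitors, is made at about the same stage. The secondary granules come later and hold lactoferrin (Ltf), cathelicidin (Camp) and the neutrophilic granule protein (Ngp), while S100a8 and S100a9 are calcium-binding proteins of the neutrophil cytosol. The transcription factors PU.1 (Spi1) and C/EBP alpha, which binds as a bZIP dimer like HLF, drive the early wave, and C/EBP epsilon the later one. Stem cells are known to carry low levels of Mpo and some other myeloid transcripts before any commitment.

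The upstream regions of the 4 primary granule enzymes are shown because Prtn3 and Elane, neighbours in 1 cluster, differed in how the libraries carried them. The sequences are from RefSeq, build GRCm38.p6, each running from 250 bases before the annotated start to 50 after it, 5′ to 3′ on the gene's strand. Capitals mark GGAAGT, the core that PU.1 and other ETS factors recognise, found on either strand. The Prtn3 window is chr10:79879417-79879716 (plus strand), that of Elane chr10:79886062-79886361 (plus), that of Mpo chr11:87793534-87793833 (plus) and that of Ctsg chr14:56102525-56102824 (minus).
Prtn3: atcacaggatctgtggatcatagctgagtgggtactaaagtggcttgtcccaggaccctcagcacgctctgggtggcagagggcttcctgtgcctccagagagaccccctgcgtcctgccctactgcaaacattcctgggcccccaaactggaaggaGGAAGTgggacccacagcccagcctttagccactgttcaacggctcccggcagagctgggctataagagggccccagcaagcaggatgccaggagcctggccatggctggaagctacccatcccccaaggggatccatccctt
Elane: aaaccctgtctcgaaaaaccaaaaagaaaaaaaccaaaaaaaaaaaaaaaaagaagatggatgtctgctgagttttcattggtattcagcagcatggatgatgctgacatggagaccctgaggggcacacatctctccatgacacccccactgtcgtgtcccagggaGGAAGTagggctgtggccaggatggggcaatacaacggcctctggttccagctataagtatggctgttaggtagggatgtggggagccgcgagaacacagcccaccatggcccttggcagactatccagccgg
Mpo: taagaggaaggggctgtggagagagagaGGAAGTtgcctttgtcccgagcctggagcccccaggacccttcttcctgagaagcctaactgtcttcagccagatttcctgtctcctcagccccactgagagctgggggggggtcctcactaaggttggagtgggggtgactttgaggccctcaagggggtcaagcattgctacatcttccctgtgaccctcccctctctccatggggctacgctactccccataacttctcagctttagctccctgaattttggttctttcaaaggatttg
Ctsg: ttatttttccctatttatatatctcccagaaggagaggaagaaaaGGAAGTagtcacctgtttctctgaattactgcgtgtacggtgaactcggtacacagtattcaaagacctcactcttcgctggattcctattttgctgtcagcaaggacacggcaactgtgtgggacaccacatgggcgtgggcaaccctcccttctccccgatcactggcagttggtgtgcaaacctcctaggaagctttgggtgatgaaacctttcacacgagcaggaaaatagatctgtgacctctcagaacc
GGAAGT began 93 bases upstream of the Prtn3 start, 83 upstream of Elane, 222 upstream of Mpo and 205 upstream of Ctsg. On either strand it was in 7 of the 10 members' windows and in 23.8% of the 32851 windows of that length in the table. The letters TATAA, also searched on both strands, began 32 bases upstream of the Prtn3 start and 31 upstream of Elane, and were in 5 of the 10 members' windows (also Ctsg, S100a8 and S100a9) and in 24.9% of all windows. A relaxed form of the C/EBP site, TTGCNNAA, was in 4 member windows (Ms4a3, S100a9, Ngp and Ltf) and in 10.8% of all. The outer letters of the PAR bZIP site, TTANNTAA, were in 0 of the 10 windows and in 6.00% of all, which says only that these letters are not in these windows. The GGAAGT and TATAA matches did not overlap each other. All of these matches describe letters and are not evidence of binding.

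The libraries labelled HLF KO held 10182464 to 11998296 counts and the wild-type libraries 8346335 to 9902102. Hlf itself, as a check of the labels, stood at 28.3, 37.6 and 37.3 CPM (counts divided by the TMM-scaled size of each library) in the HLF KO libraries, against 1370, 1662 and 1114 CPM in the wild-type libraries. Hlf was also the 1 gene of 10204 tested (0.0098%) with an edgeR adjusted p under 0.05. The summed level of the stem cell marker list was 341 to 457.5 CPM in HLF KO and 554 to 696 CPM in wild type. The sum does not stand for every marker. Of the 11 tested, 7 had negative and 4 positive log2 fold changes, where 52.8% of all genes tested were negative. Xist was at 1665 CPM in HLF KO library 3 and 1854 CPM in wild-type library 3, and at 3.11 CPM or less in the other 4. The Y-linked gene Ddx3y was at 0 in those 2 libraries and at 44.9 CPM or more in the other 4.

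Of the 10 members, 9 had at least 1 count and 6 passed the filter on low counts. S100a9 is listed at 0 in all 6 libraries through both of its listed transcripts. Across the files, counts were far fewer for genes with 2 listed transcripts (median sum 3) than for genes with 1 (median sum 79), so the 0 is not read as absence of expression. The other 9 members have 1 listed transcript each.

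Wild-type library 3 stood apart from the other 5 for these genes. It held the highest value of all 9 counted members, where it was the highest library for 15.3% of all genes tested. The members together came to 67.3, 168 and 64.0 CPM in HLF KO libraries 1 to 3, and to 191, 119 and 2418 CPM in wild-type libraries 1 to 3. The tested members and the lists are therefore also described without that library, which leaves 2 wild-type libraries, both with Ddx3y and little Xist, against 2 such HLF KO libraries and 1 with Xist and no Ddx3y. What the sex of the mice adds to the values without it was not tested. In bulk RNA, a small number of cells rich in a transcript and a low level of it in many cells cannot be told apart.

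Prtn3, a protease of the primary granules, was low in every HLF KO library and present in every wild-type one. It had 25, 120 and 35 counts in HLF KO, against 960, 680 and 3312 counts in wild type. On the CPM scale these were 2.29, 11.3 and 3.03 in HLF KO and 122, 70.7 and 367 in wild type. The groups did not overlap, and the lowest wild-type library was above the highest HLF KO library. Among all genes tested, 6.85% were lower in every HLF KO library than in every wild-type one. Prtn3 stood at a log2 fold change of -5.07 (SE 0.79), which is 33.7-fold lower in HLF KO, but the adjusted p of edgeR's quasi-likelihood test over all genes was 0.191 and the gene did not pass. DESeq2, another count model, gave an adjusted p of 9.1e-13 for Prtn3, in a test that called 1.18% of all genes. The groups still did not overlap without wild-type library 3, and Prtn3 stood at -4.12 (SE 0.77, edgeR adjusted p = 0.245). The share of all genes lower in every HLF KO library was then 13.5%.

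Mpo, the peroxidase of the primary granules, was the member with the most counts in all 6 libraries together. It had 56.9, 136 and 57.7 CPM in HLF KO, against 36.5, 45.6 and 1372 CPM in wild type. Wild-type library 3 was 10.1 times the next highest library, HLF KO library 2, while the other wild-type libraries were the lowest of the 6. Mpo stood at a log2 fold change of -2.53 (SE 1.55, edgeR adjusted p = 0.746) with all libraries and 1.03 (SE 0.52, edgeR adjusted p = 0.474) without wild-type library 3. The direction thus turned with that library. Without it Mpo was higher in every HLF KO library than in both wild-type libraries, as were 16.5% of genes.

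Elane, the elastase gene that follows Prtn3 on the chromosome, did not share the Prtn3 pattern in wild-type libraries 1 and 2. It had 1, 72 and 0 counts in HLF KO, against 1, 12 and 2150 counts in wild type. In CPM, that was at most 6.78 in HLF KO, and in wild type 0.127, 1.25 and 238. Wild-type library 3 held 96.7% of the CPM summed over the 6 libraries, and the groups overlapped. The log2 fold change of Elane, -5.12 (SE 2.97, edgeR adjusted p = 0.741), was as large as that of Prtn3 but with 1 library behind it. It was 1.70 (SE 2.48, edgeR adjusted p = 0.837) without wild-type library 3.

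The other early genes were scarce outside wild-type library 3. Ctsg, the cathepsin G gene, had 13, 32 and 1 counts in HLF KO, against 0, 0 and 814 counts in wild type. Ms4a3 had 0, 39 and 15 counts in HLF KO, against 0, 0 and 257 counts in wild type. A count of 0 allows up to 0.382 CPM in wild-type library 1 and 0.312 CPM in wild-type library 2, with 3 counts taken as the limit and counting error alone covered. Both genes were therefore at or below that level in 2 wild-type libraries and at 90.2 CPM (Ctsg) and 28.5 CPM (Ms4a3) in the third. The log2 fold changes with all libraries were -4.39 (SE 2.19, edgeR adjusted p = 0.689) for Ctsg and -2.51 (SE 2.26, edgeR adjusted p = 0.825) for Ms4a3. Both fitted values turned positive without wild-type library 3, and since the remaining wild-type counts are 0 their size depends on how the fit treats counts of 0.

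The later genes that had counts were likewise highest in wild-type library 3. S100a8, one of the calprotectin pair, had 18, 74 and 0 counts in HLF KO, against 179, 12 and 2305 counts in wild type. It stood at a log2 fold change of -5.02 (SE 2.08, edgeR unadjusted p = 0.047, adjusted p = 0.683), in a comparison where 4.65% of all genes had an unadjusted p under 0.05 and lower values in HLF KO. Without wild-type library 3 it was -2.06 (SE 1.89, edgeR adjusted p = 0.710), and the groups overlapped either way. Ngp, Ltf and Camp did not pass the filter on low counts and were not tested. Ngp had 0, 1 and 0 counts in HLF KO, against 74, 0 and 330 counts in wild type. Ngp and S100a8 were thus the 2 members of the later group with counts in wild-type library 1, in which Ctsg, Ms4a3, Ltf and Camp were at 0. Ltf had 0, 2 and 21 counts in HLF KO, against 0, 0 and 147 counts in wild type. Camp had 57, 0 and 1 counts in HLF KO, against 0, 0 and 123 counts in wild type. For Camp, HLF KO library 1 was the only library besides wild-type library 3 with more than 1 count.

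**Figure D1:**
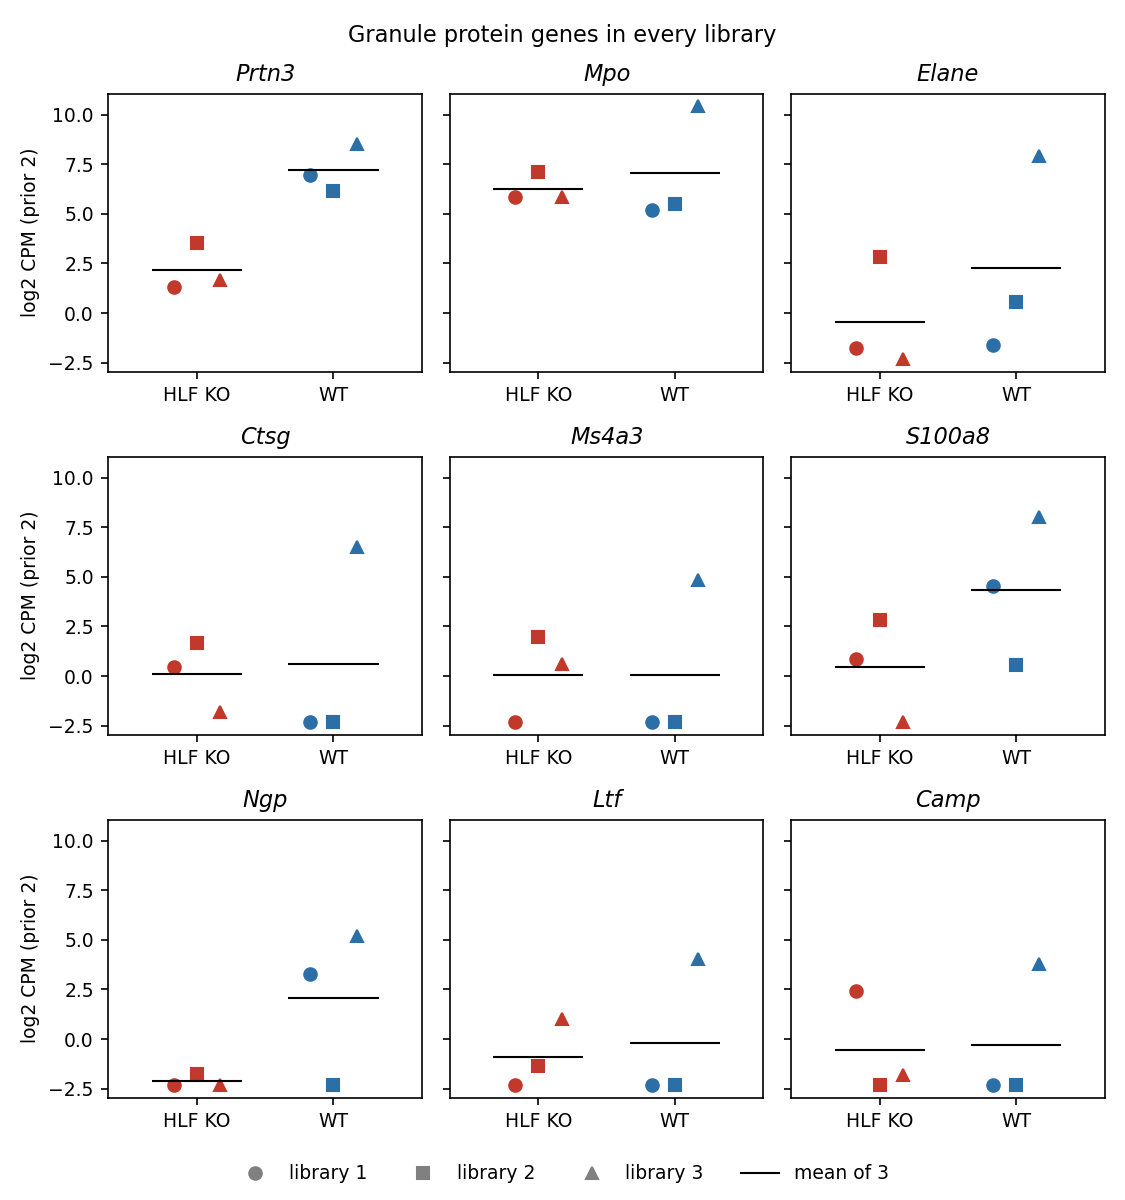
Log2 CPM (vertical axis, prior count 2) of the 9 counted granule genes in each library, HLF KO in red and wild type in blue, with marker shapes for library numbers and a line at the mean of 3 libraries. Prtn3 is the panel without overlap, with HLF KO at 2.29 to 11.3 CPM and wild type at 70.7 to 367 CPM; in every panel wild-type library 3 is the highest point.

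The members stood in a different order of abundance in the different libraries. Per length (CPM per kilobase of the GENCODE M21 transcript), Mpo ranked first of the 10 in each HLF KO library, at 20.7, 49.6 and 21.0. In the wild type Mpo had 13.3 and 16.6 CPM per kilobase in libraries 1 and 2, and 499 in library 3. Prtn3 had 2.23, 11.03 and 2.96 CPM per kilobase in HLF KO, against 119, 69.0 and 358 in wild type. It therefore ranked first in wild-type libraries 1 and 2, where it made up 63.7% and 77.2% of the members' summed level per length. In wild-type library 3 S100a8 ranked first, at 526 CPM per kilobase, ahead of Mpo and Prtn3.

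Prtn3 was also set against the other members inside each library, where the scaling of the library drops out. To Mpo, the log2 ratio of Prtn3 (difference of log2 CPM) was -4.52, -3.57 and -4.16 in HLF KO, against 1.74, 0.63 and -1.90 in wild type. No HLF KO library reached the lowest wild-type library, so the groups did not overlap for this pair. The mean was -4.08 ± 0.48 in HLF KO and 0.16 ± 1.87 in wild type (SD, n = 3 each), a difference of -4.24. A two-sided exact permutation test gave p = 0.1, the lowest value open to a design of 3 and 3 libraries, and 0.32 after adjustment over the 8 ratios that could be formed. Without wild-type library 3 the difference was -5.27.

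The other ratios rested on very few counts of the second gene. To Elane, the Prtn3 log2 ratio was 3.09, 0.72 and 4.0 in HLF KO, against 8.54, 5.61 and 0.62 in wild type. Wild-type library 3 gave the lowest of the 6 values, so the groups overlapped, with a difference in means of -2.32 (two-sided exact permutation p = 0.5). Counts of Prtn3 exceeded those of Elane in all 6 libraries, by 960 to 1 in wild-type library 1 and by 3312 to 2150 in wild-type library 3. To Ctsg the difference was -4.52 (exact permutation p = 0.2) and to S100a8 -1.14 (exact permutation p = 0.6), with overlap in both. Without wild-type library 3 the difference was -4.47 to Elane, -6.80 to Ctsg and -2.31 to S100a8. For Ms4a3 the difference was -5.03 (exact permutation p = 0.1), and the highest HLF KO value, 3.63, was next to the lowest wild-type value, 3.68. The ratios to Ngp, Ltf and Camp differed by -0.85, -4.33 and -4.75 and overlapped. None of the 8 ratios had an adjusted permutation p below 0.32. No unadjusted p below 0.1 is open to 3 and 3 libraries, so these tests could not have reached 0.05 and decide nothing. Prtn3 itself did not overlap between the groups, so a ratio without overlap can restate the Prtn3 values. The share of all genes with such a ratio was not computed.

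**Figure D2:**
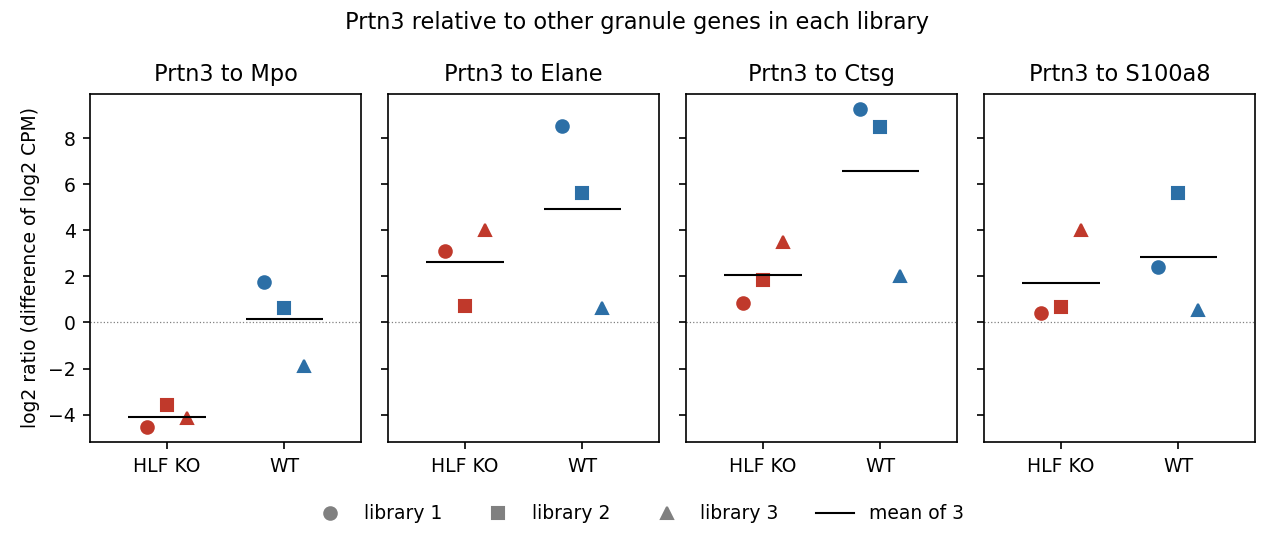
Log2 ratio of Prtn3 to Mpo, Elane, Ctsg and S100a8 (vertical axis) in each library, HLF KO in red and wild type in blue, with a line at the mean of 3 libraries and a dotted line at equal level. For Mpo the HLF KO libraries lie at -4.52 to -3.57 and the wild-type libraries at -1.90 to 1.74; wild-type library 3 is the lowest wild-type point in all 4 panels.

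The genes on either side of Prtn3 were read because Prtn3 and Elane lie in 1 run of genes on chromosome 10, with starts 6645 bases apart in GRCm38.p6. Of the 10 neighbours (5 on each side with a listed transcript), 8 had counts and 4 were tested, with a median log2 fold change of -0.99 against -0.05 for all genes tested. That median turned to 0.45 without wild-type library 3, with 2 of the 4 genes positive, Elane among them. Plppr3, which encodes a membrane protein of the lipid phosphatase-related family and lies next to Prtn3 on the other side from Elane, had 37.6, 27.6 and 24.1 CPM in HLF KO, against 61.7, 113 and 41.8 CPM in wild type. Its groups did not overlap, at a log2 fold change of -1.28 (SE 0.49, edgeR adjusted p = 0.625). Of all genes tested, 6.85% were lower in every HLF KO library than in every wild-type one. Plppr3 stood at -1.55 without wild-type library 3 (edgeR adjusted p = 0.315) and passed by DESeq2 (adjusted p = 0.0469), in a test that called 3.71% of all genes. It has 3 listed transcripts, so its counts may miss part of its reads. R3hdm4 stood at -0.69 (SE 0.32) and E130317F20Rik at 1.28 (SE 1.21), both with overlap (edgeR adjusted p = 0.684 and 0.843), and at -0.80 and 1.86 without wild-type library 3. Cfd, the complement factor D gene next to Elane, had 38 counts in HLF KO library 1 and 0 in the other 5 libraries. The sources used here do not say whether strand was used in counting, so reads of overlapping antisense transcripts, if any, cannot be separated.

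**Figure D3:**
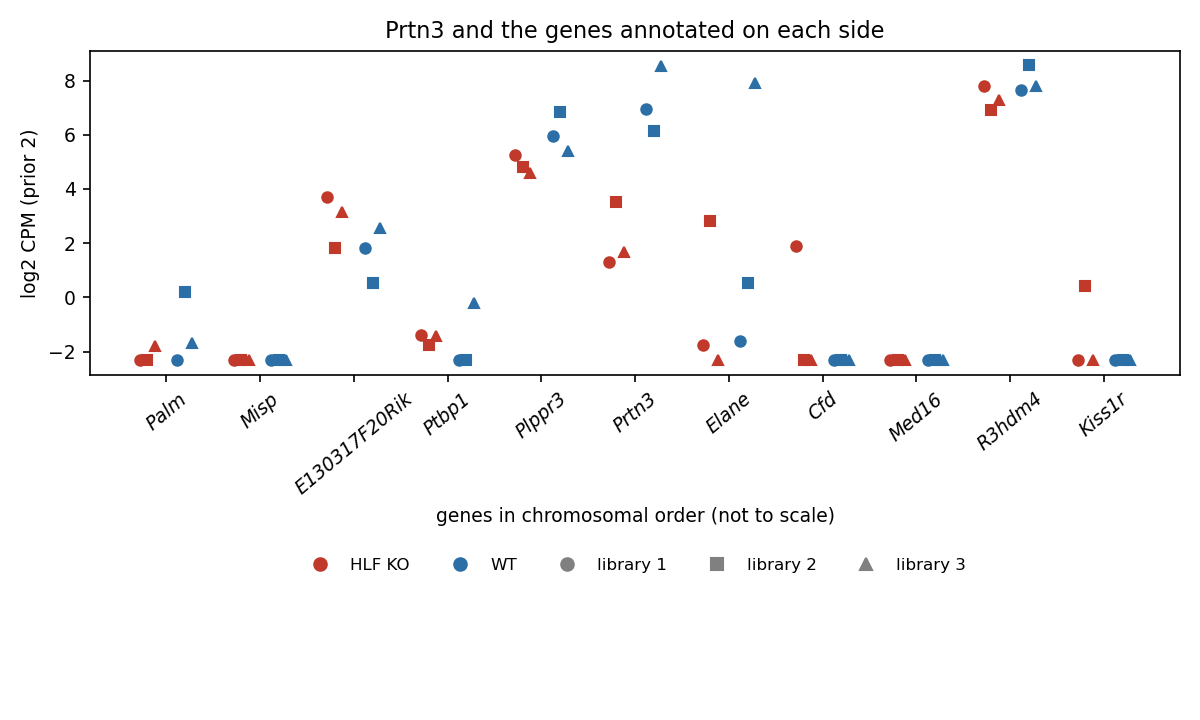
Log2 CPM (vertical axis, prior count 2) of Prtn3 and its 10 neighbours in chromosomal order, not to scale, HLF KO in red and wild type in blue. Prtn3 has the widest gap without overlap among these genes, at 2.29 to 11.3 CPM in HLF KO and 70.7 to 367 CPM in wild type, while Elane is high in wild-type library 3 alone at 238 CPM.

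Other genes of the primary granules and their handling mostly did not follow Prtn3. Of 10 listed, 7 were tested, 3 with positive and 4 with negative log2 fold changes and a median of -0.03 (5 positive, 2 negative and 0.16 without wild-type library 3). Lyz2, the myeloid lysozyme, had 241, 197 and 413 CPM in HLF KO, against 372, 501 and 668 CPM in wild type, at a log2 fold change of -0.86 (SE 0.31, edgeR adjusted p = 0.573) and -0.62 without wild-type library 3. Its near copy Lyz1 stood at -0.63 (SE 0.52), and reads of the pair could be split between them. Prss57, which encodes the granule protease NSP4, had 5.49, 4.24 and 14.2 CPM in HLF KO, against 1.40, 3.85 and 37.5 CPM in wild type (log2 fold change -0.83, SE 1.20, edgeR adjusted p = 0.916, and 1.60 without wild-type library 3). Prss57 thus shared with Mpo that wild-type library 3 was highest and wild-type libraries 1 and 2 lowest. The HLF KO libraries stood in another order, with library 2 lowest for Prss57 and highest for Mpo. Without wild-type library 3, 16.5% of all genes were higher in every HLF KO library than in both wild-type ones. Srgn, the proteoglycan core that packs granule proteases, stood at 0.14 (SE 0.25). Ctsc, which activates these proteases, had 32.8 to 60.7 CPM in HLF KO and 22.3 to 62.8 CPM in wild type (log2 fold change -0.03, SE 0.51). Fcnb, ficolin B, had 96 counts in wild-type library 3 and 0 elsewhere.

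Among other later granule genes, more of the tested log2 fold changes were negative than positive. Of all genes tested, 52.8% were negative, and 50.2% without wild-type library 3, where the share of these genes was near that. Of 16 listed, 12 had counts and 7 were tested, 2 with positive and 5 with negative log2 fold changes and a median of -1.37 (3 positive, 4 negative and -0.65 without wild-type library 3). Cybb, the large subunit of the phagocyte oxidase, had 1.92, 9.14 and 3.03 CPM in HLF KO, against 5.73, 3.64 and 92.1 CPM in wild type, at -2.85 (SE 1.21, edgeR adjusted p = 0.653). It stood at 0.0039 without wild-type library 3. Padi4, which citrullinates histones in neutrophils, went the other way round within the wild type, with 9.79, 15.5 and 17.3 CPM in HLF KO, against 96.3, 41.7 and 10.2 CPM in wild type (log2 fold change -1.80, SE 0.75, edgeR adjusted p = 0.650). Its groups did not overlap without wild-type library 3, where Padi4 stood at -2.28 (edgeR adjusted p = 0.286) and passed by DESeq2 (adjusted p = 0.0118). In that comparison 13.5% of all genes were lower in every HLF KO library, and DESeq2 called 3.71% of all genes. Chil3, Lcn2 and Mmp8, products of later neutrophil precursors, had 239, 102 and 102 counts in wild-type library 3. In the other 5 libraries Chil3 was at 0, Lcn2 had 1 count, in HLF KO library 1, and Mmp8 had 47, in HLF KO library 2. Pglyrp1, a peptidoglycan-binding granule protein, stood at -1.37 (SE 0.63) and Anxa1 at -0.98 (SE 0.51), or -1.16 and -0.65 without wild-type library 3.

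Transcription factors of granulocyte development were uneven across the libraries too. Of 13 listed, 6 were tested, 1 with a positive and 5 with negative log2 fold changes and a median of -1.39 (3, 3 and 0.13 without wild-type library 3). Of all genes tested, 52.8% were negative, and 50.2% without wild-type library 3. Spi1, which encodes PU.1, had 41.7, 73.8 and 64.5 CPM in HLF KO, against 62.6, 67.0 and 100.3 CPM in wild type, at -0.35 (SE 0.40, edgeR adjusted p = 0.877) and -0.11 without wild-type library 3. Cebpa, the early granulocyte factor, had 0, 13 and 25 counts in HLF KO, against 0, 4 and 203 counts in wild type. Cebpe, which drives the later granules, had 46 counts in wild-type library 3 and 0 in every other library. Cebpa and Cebpe were thus highest in wild-type library 3, as was Cebpb with 99 counts there. Cebpd went the other way, with 49 counts in HLF KO library 3 and 16 in wild-type library 3. Wild-type library 3 was the highest library for 15.3% of all genes tested. Klf4, a monocyte factor, stood at -1.52 (SE 0.59) and Irf8, which favours monocytes over granulocytes, at -2.34 (SE 1.40), with overlap between the groups, or -1.53 and -2.09 without wild-type library 3. Gfi1 and Runx1, with several listed transcripts each, were at 0.

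Tested receptor and surface genes of granulocyte-monocyte progenitors had negative log2 fold changes, most of them also without wild-type library 3. Of 16 listed, 10 were tested and all 10 had negative log2 fold changes, against 52.8% of all genes tested, with a median of -1.18 (9 of 11 negative and -0.76 without wild-type library 3, where 50.2% of all genes were negative). At an unadjusted edgeR p under 0.05, 3 of them were lower and 0 higher, where 4.65% of all genes were lower and 2.63% higher. Without wild-type library 3, 1 of 11 was lower and 0 higher at that p, where 6.05% of all genes were lower. Csf2rb2, a beta subunit of the IL-3 receptor in mice, had 32.9, 13.8 and 22.3 CPM in HLF KO, against 158, 50.03 and 62.4 CPM in wild type. Its groups did not overlap, and it stood at -1.97 (SE 0.55, edgeR adjusted p = 0.466, DESeq2 adjusted p = 0.0319) with all libraries and -2.17 without wild-type library 3. With all libraries DESeq2 called 1.18% of all genes. Csf2rb, its near copy, stood at -1.24 (SE 0.59), or -0.93 without wild-type library 3, with no overlap either way, and the counting could have split reads between the pair. Of all genes tested, 6.85% were lower in every HLF KO library, and 13.5% without wild-type library 3. Csf2ra, the alpha subunit of the GM-CSF receptor, stood at -1.16 (SE 0.50) with all libraries and -1.17 without wild-type library 3. Ly6c2, a surface protein of monocytes and their progenitors, had 18.4, 48.2 and 10.5 CPM in HLF KO, against 71.0, 15.9 and 321 CPM in wild type, at -2.40 (SE 0.89) and -0.76 without wild-type library 3.

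**Figure D4:**
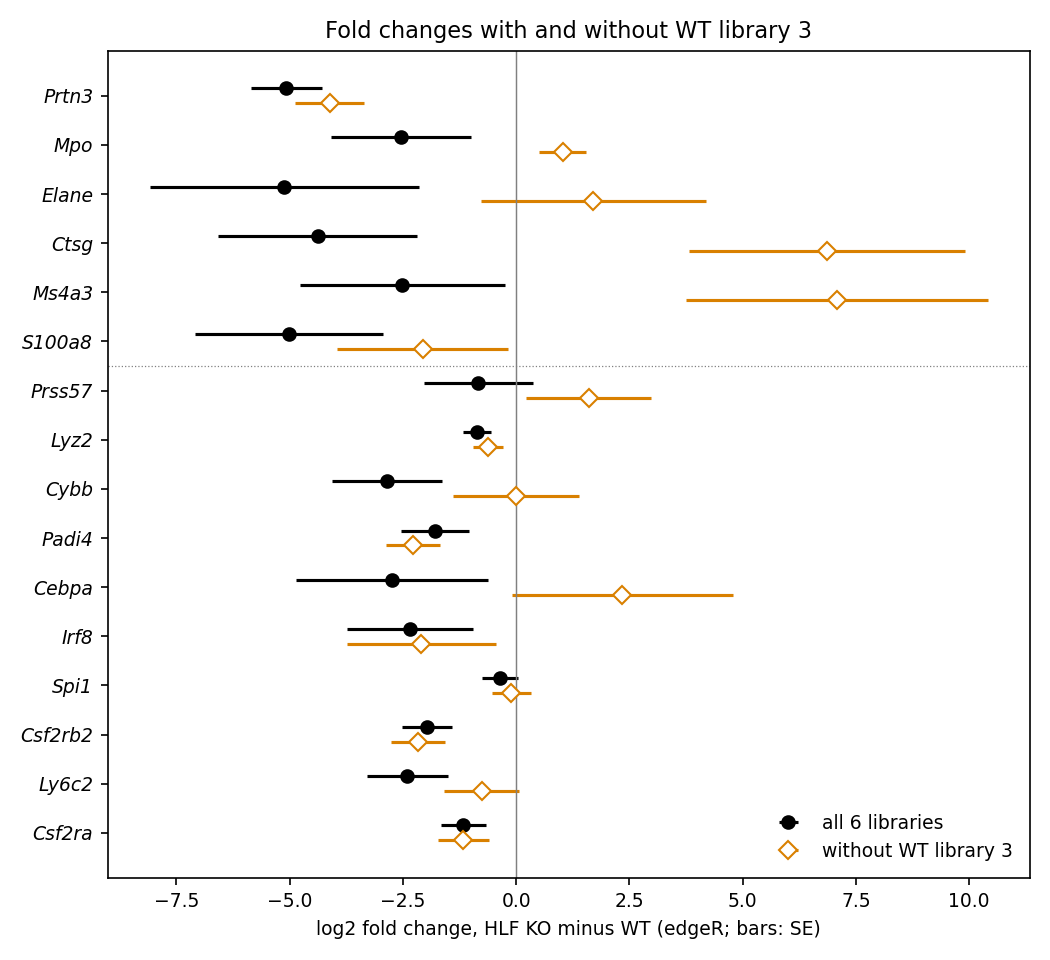
Log2 fold change, HLF KO minus wild type (horizontal axis, edgeR, bars are SE), with all 6 libraries (black circles) and without wild-type library 3 (open orange diamonds), the tested members above the dotted line and other myeloid genes below it. Prtn3 stands at -5.07 and -4.12 in these fits and S100a8 at -5.02 and -2.06, while Mpo, Elane, Ctsg and Ms4a3 cross 0.

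Markers of other cells were set beside these values. All 8 eosinophil markers had counts, and they summed to 0.823 to 1.82 CPM in HLF KO and 9.36 to 1071 CPM in wild type. Prg2, the eosinophil major basic protein, was likewise lower in every HLF KO library, with 0.274, 0.283 and 1.82 CPM in HLF KO, against 39.6, 8.42 and 723 CPM in wild type (log2 fold change -8.30, SE 2.16, edgeR adjusted p = 0.501). Like Prtn3 it passed by DESeq2 (adjusted p = 0.000544, and 0.00715 without wild-type library 3, where it stood at -4.89 by edgeR), and its groups did not overlap either way. DESeq2 called 1.18% of all genes, and 3.71% without wild-type library 3. The share of genes lower in every HLF KO library was 6.85%, and 13.5% without wild-type library 3. Il5ra, the other eosinophil marker tested, had 0.457, 1.04 and 0 CPM in HLF KO, against 16.8, 0.104 and 6.43 CPM in wild type, with overlap. Ear1 and Epx, other eosinophil granule genes, had 1992 and 826 counts in wild-type library 3, and at most 1 count in any other library. Of 12 monocyte and macrophage markers, 11 were in the files and 8 had counts, with Cd14, Ms4a7 and Marco at 0. Their sum was 24.9 to 67.8 CPM in HLF KO and 55.1 to 122 CPM in wild type, highest in wild-type library 1. The 10 B-lineage markers, all with counts, summed to 131 to 289 CPM in HLF KO and 675 to 5236 CPM in wild type, highest in wild-type library 3 and mostly Jchain, the antibody joining chain. All 8 mast cell and basophil markers had counts and summed to 592 to 717 CPM in HLF KO and 533 to 720 CPM in wild type. Of 10 T and NK cell markers 8 had counts, with Cd8a and Lck at 0, and they summed to 44.1 to 77.0 CPM in HLF KO and 25.0 to 134 CPM in wild type. Of 10 erythroid markers 7 had counts, with Hbb-b1, Hba-a1 and Alas2 at 0, and they summed to 401 to 500.4 CPM in HLF KO and 364 to 575 CPM in wild type. All 8 megakaryocyte markers had counts and summed to 757 to 948 CPM in HLF KO and 326 to 546 CPM in wild type. The part of eosinophil, B-lineage and megakaryocyte RNA in the granule gene values was not tested.

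The 5 genes whose log2 CPM over the 6 libraries was most like that of Prtn3, among 8462 others averaging 2 or more on that scale, were Mettl7a1, Adgrl4, Zfp939, Gpbp1l1 and 2610035D17Rik, with Pearson's r of 0.98 to 0.99. For Mpo they were Auh, Osbpl9, Mir142, Fbh1 and Dsel, with r of 0.96 to 0.99. Prtn3 and Mpo themselves had an r of 0.49, and Prtn3 and S100a8 an r of 0.80. These are descriptions over 6 libraries that share depth, genotype and wild-type library 3, and carry no test.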

How the data were processed

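The values deposited by the authors are raw counts of reads for each RefSeq transcript, 1 file per library, and TopHat and mouse build mm9 are named per the submitters' processing notes. The sources used here do not give the counting tool, annotation release, strand use or treatment of shared reads. The 30858 transcripts were given symbols from a RefSeq table (GRCm38.p6, 30363 transcripts) or GENCODE M21 (179), and 316 kept their accession. Counts were summed to 23574 features. The files' build differs from the reference, so only promoter sequences carry coordinates, in GRCm38.p6.

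Counts of HLF KO and wild type were compared with edgeR 4.0.16 (R 4.3.3): TMM factors, filterByExpr by genotype (minimum count 10, total 15), then a robust quasi-likelihood F test over all 6 libraries without covariates. Benjamini-Hochberg adjustment covered the 10204 genes tested, and an adjusted p under 0.05 counted as passing. Standard errors came from the F statistic. Log2 CPM used a prior count of 2. Ratios of Prtn3 to other members were compared by two-sided exact permutation tests over libraries, adjusted over 8 ratios, since S100a9 had no counts. DESeq2 1.42.0 and limma-voom (limma 3.58.1), other scalings and filters, thinning to the smallest library, and leaving out each library were alternatives. DESeq2 without wild-type library 3 was added after the data were seen. The edgeR step was tested on simulated data, with changes set in 50 of the more abundant genes for each fold. It recovered 8% of 2-fold, 52% of 4-fold, 78% of 8-fold and 94% of 16-fold changes, with 7 false calls among 123. A gene that did not pass is therefore not shown to be unchanged. The simulated libraries of a group shared 1 mean per gene, so none was set apart as wild-type library 3 was. Recovery for genes such as these members may differ from those shares, and Prtn3, 33.7-fold lower in HLF KO, did not pass. Python 3.11.15 with scipy 1.17.1 was used for tables.

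All members are named, and of the other granule, transcription factor, surface and neighbour lists the 4 genes of smallest p. The marker lists of cell types are given as sums, without that rule. Further genes named (Ctsc, Fcnb, Chil3, Lcn2, Mmp8, Cebpb, Cebpd, Cebpe, Gfi1, Runx1, Cfd, Prg2, Il5ra, Ear1, Epx, Jchain, Xist, Ddx3y) were chosen after their values were seen. Members and lists were chosen with earlier results of these data known. Depth was 8346335 to 11998296 counts per library. Limits for counts of 0 use 3 counts and cover counting error only.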

Additional observations from a re-analysis of the deposited data

How the results depend on the processing

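The count of genes past the threshold was 1 (Hlf) by edgeR with all 6 libraries. It was 9 with no filter on low counts, 120 by DESeq2, 396 by DESeq2 without wild-type library 3, and 1 to 3 when each library was left out in turn. With a replicate block it was 2. The labels do not say whether the numbers 1 to 3 pair the libraries. In both genotypes library 3 was the one with high Xist. Same-numbered HLF KO and wild-type libraries correlated at -0.01, -0.02 and 0.02 in their deviations from the group means. Not every library correlated best with its own number. Deviations from a mean of 3 libraries cancel within each group, so these correlations cannot decide whether the numbers pair the libraries. The log2 fold change of Prtn3 was negative under all alternatives, at -6.11 to -4.12 when 1 library was left out. Its adjusted p was 0.0595 to 0.764 in the fits by edgeR and limma-voom other than the one reported, and it passed by DESeq2, also without wild-type library 3 (adjusted p = 2.9e-05). Csf2rb2 passed by DESeq2 both ways, and Padi4 and Plppr3 by DESeq2 without wild-type library 3 alone.

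Of 25 genes followed, 8 turned sign somewhere. Without wild-type library 3, Mpo stood at 1.03 (1.00 by DESeq2), Elane at 1.70 (1.72), Ctsg at 6.86 (6.06), Ms4a3 at 7.07 (6.27), Cebpa at 2.35 (2.42), Prss57 at 1.60 (1.58) and Cybb at 0.0039. By limma-voom, Ctsg stood at 0.17, Ms4a3 at 0.39 and Prss57 at 0.18, and with the replicate block at 2.47, 0.30 and 0.20. With each library left out in turn, Mpo ranged from -3.07 to 1.03, Elane from -10.4 to 1.70, Ctsg from -5.52 to 6.86, Ms4a3 from -3.82 to 7.07, Cebpa from -3.61 to 2.35, Cybb from -3.75 to 0.0039, Prss57 from -1.54 to 1.60 and Srgn from -0.067 (without wild-type library 2) to 0.38. The cause was not tested for limma-voom, the block or the counts of genes. DESeq2 gave no p for Mpo, Elane and Ctsg with all libraries. The log2 ratio of Prtn3 to Mpo differed by -5.27 to -3.45 when 1 library was left out, that to Elane by -4.47 to -0.51 and that to Ctsg by -6.80 to -3.19, the weakest in each case without wild-type library 1. None of these ratios turned sign under the 10 alternatives run for each. At 0 or 1 count, Elane and Ctsg in wild-type library 1 limit what their ratios can show.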
